A study of Mus musculus with 17 samples.

Results

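The genes described here are the initiation and elongation factors of cytosolic translation and the kinases and binding proteins named with them. They were taken as every row of the deposited gene table whose symbol begins with Eif or Eef followed by a digit, which gave 66 of 23282 genes. Of these, 62 are translation genes by their current names. The other 4 are Argonaute genes, which the table lists under the older symbols *Eif2c1* to *Eif2c4* (now *Ago1* to *Ago4*) and which act in small RNA silencing. By role, the members comprised 7 factors of scanning and start codon choice, 11 genes of eIF2 and its exchange factor eIF2B together with related tRNA carriers, 4 eIF2α kinases, 13 eIF3 subunits, 12 cap-binding and helicase factors, 4 regulators of eIF4E, the subunit-joining inhibitor *Eif6*, 9 elongation factors and the elongation factor kinase *Eef2k*.

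Translation of a capped mRNA begins when eIF4F, made of the cap-binding protein eIF4E, the scaffold eIF4G and the helicase eIF4A, brings the message to a small ribosomal subunit that already carries eIF3, eIF1, eIF1A and the ternary complex of eIF2, GTP and initiator tRNA. After the start codon is found, eIF2 leaves as a GDP complex and must be recharged by eIF2B, a step that the eIF2α kinases block under stress. During elongation eEF1A delivers aminoacyl-tRNA, eEF2 moves the ribosome along and eIF5A, a protein carrying the modified residue hypusine, helps ribosomes that stall. Male germ cells are known for heavy use of paralogs of these factors and for storing mRNAs that are translated at a later stage, and the X and Y chromosomes are silenced during meiosis.

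The stages were SPG (spermatogonia), PreL (spermatocytes about to enter leptotene) and LZ (leptotene and zygotene spermatocytes), each sorted by FACS on Hoechst and propidium iodide fluorescence from testes of C57BL/6 mice for bulk RNA sequencing. WT mice were labelled as wild type, and *Nat10*-SKO mice were *Nat10* fl/- with a Stra8-GFPCre knock-in, so that the loxP-flanked exons 4 and 5 of *Nat10*, the RNA cytidine acetyltransferase gene, are excised in germ cells that express *Stra8* while the other allele is already deleted. Of the 17 libraries, SPG and PreL had 3 of each genotype, while LZ had 2 from WT and 3 from SKO. The ages of these mice, and whether the replicates came from separate mice, are not given in the sources used here, so p-values measure the spread between these samples, which may be technical. Below, per-library values follow the replicate numbers of the labels: 1, 2 and 3 for WT SPG, 1, 3 and 4 for SKO SPG, 1, 2 and 4 for WT PreL, 2 and 3 for WT LZ, and 1, 2 and 3 for SKO PreL and SKO LZ.

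Each deposited value is a read count multiplied by a spike-in calibration factor of its library, and whole reads could be recovered for 100% of the values within a tolerance of 0.01 reads. The libraries held from 5812380 to 13820953 reads, and the SKO LZ libraries were the shallowest (5812380 to 7609420). *Nat10* had fewer reads in every SKO library than in any WT library of its stage. In LZ it had 388 and 391 reads in WT and 45, 52 and 61 in SKO, not corrected for depth. With values scaled between libraries, its log2 fold change in SKO against WT was -0.87 in SPG, -1.29 in PreL and -1.47 in LZ. The SPG value was smaller in size than the 1 required for a call below. The 5 differentiating spermatogonia markers summed to 13449 to 16510.3 in WT SPG and 19145 to 19649 in SKO SPG, and all 9 early meiotic markers in the table were present in PreL and LZ of both genotypes. The early meiotic sum was 64849 to 67304 in WT SPG and 95046 to 97990 in SKO SPG. In PreL it was 104936 to 117711 in WT and 124569 to 196648 in SKO, so that it was higher in SKO without overlap at both stages. The sorted populations also differed in markers of other cell types. In LZ, 6 of 7 listed late spermatocyte markers summed to normalised values of 64381 and 145833 in the WT libraries and to between 2931 and 3905 in the SKO libraries, and 7 spermatid markers to 18610.2 and 14175 in WT and between 209 and 294 in SKO, with the spermatid marker *Acrv1* at 0 in SKO LZ. The 5 differentiating spermatogonia markers summed to 10368 and 6294 in WT LZ and 16880.5 to 18936 in SKO LZ, without overlap. In LZ, sums of the 9 early meiotic markers overlapped between the genotypes (89150.4 and 132756 in WT, 103645 to 142834 in SKO). Those of 7 Leydig, 6 Sertoli and 4 macrophage markers were higher in SKO LZ, at 2505 to 6649, 4539 to 5283 and 163 to 664 against 527 to 1114, 1157 to 3997 and 22.5 to 55.5 in WT, with the Sertoli marker *Amh* at 0 in SKO LZ, and 4 endothelial markers summed to 18.5 to 60.5 in WT and 65.4 to 120.4 in SKO. Sums of 4 peritubular myoid markers overlapped in LZ. In PreL the late spermatocyte sum was 7499 to 24617 in WT and 1268 to 1869 in SKO, and the spermatid sum 12646.5 to 20649.5 and 211 to 274, while Leydig and macrophage sums were 133 to 399.7 and 179 to 533 in WT and 924 to 9194 and 628 to 1231 in SKO. In SPG the late spermatocyte sum was 3081 to 4289.8 in WT and 549 to 2948 in SKO and the spermatid sum 2185 to 5917 and 82.3 to 176. Leydig, peritubular myoid and macrophage sums in SPG were 126 to 335, 17.5 to 93.1 and 398 to 494 in WT and 1299 to 4864, 702 to 1419 and 1805 to 2996 in SKO. Peritubular myoid and endothelial sums were higher in SKO PreL without overlap. Sertoli sums overlapped in SPG and PreL, endothelial sums in SPG, and differentiating spermatogonia sums in PreL. Sums of 7 undifferentiated spermatogonia markers overlapped at every stage. Markers of some other cells thus separated the genotypes at every stage. The part of these differences in the results below was not tested.

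Members ranged over several orders of magnitude in level per kilobase of exon (normalised value, the deposited value divided by a median-of-ratios size factor over all 17 libraries, per kilobase of annotated exons). *Eef1a1*, which delivers aminoacyl-tRNA, ranked highest of the 66, with group means between 17221 and 23940.3 per kb. *Eif1b* and *Eif1*, which act in start codon choice, and *Eif5*, the GTPase activator of eIF2, followed, with means over the 6 groups of 4609, 4422 and 4209 per kb. The group means of these 3 genes overlapped, so that their order is not fixed. The lowest of the 63 members with enough reads for a test were *Eif2c2*, *Eif4ebp2*, *Eif2ak2* and *Eif4e3*, at 5.53, 8.09, 14.6 and 25.7 per kb. The remaining 3 members had almost no reads. The muscle and neuron paralog *Eef1a2* had at most 1 read in any library, the oocyte cap-binding paralog *Eif4e1b* at most 5, and *Eif3j* was at 0 in all 17 libraries. *Eif3j* corresponds to *Eif3j1*, which has a near-identical copy, *Eif3j2*, and only uniquely mapped reads were counted, so this 0 does not show that the subunit was unexpressed.

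**Figure D1:**
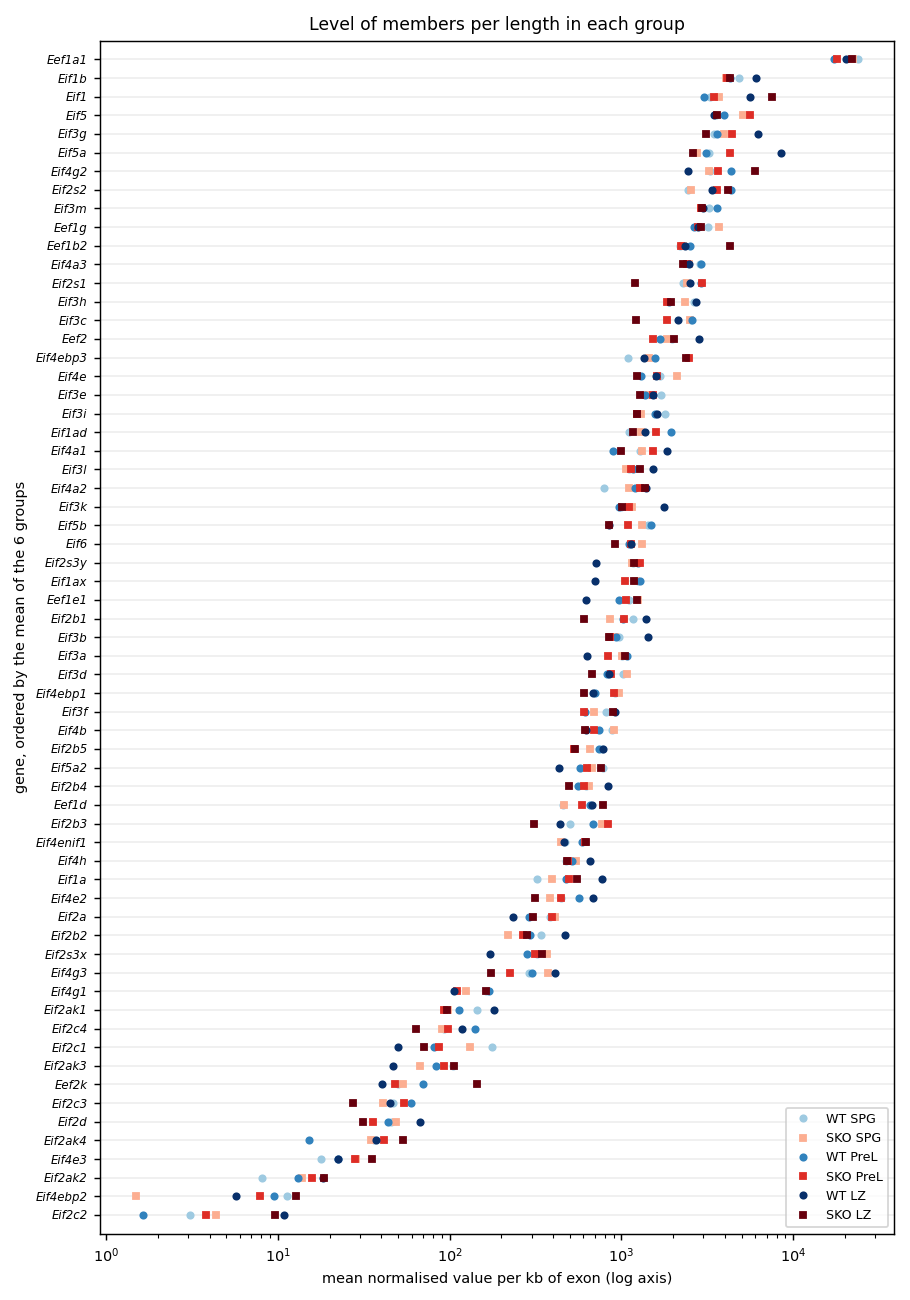
Mean normalised value per kilobase of exon (log axis) of the 63 members with enough reads for a test, with 1 point for each of the 6 groups of genotype and stage. *Eef1a1* stands above all other members in every group, and *Eif5a*, *Eif4g2* and *Eef2k* have their WT LZ and SKO LZ points on opposite sides of the other groups.

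Paralogs were unequal in level per length. *Eif5a* exceeded *Eif5a2* in every group, at 8536 against 434 per kb in WT LZ but at 2613 against 763 in SKO LZ. Among the eIF4G scaffolds *Eif4g2* was the highest per kilobase in every group (2436 to 5969), *Eif4g3* lay between 173 and 413, and *Eif4g1* between 106 and 168. Of the cap-binding proteins *Eif4e* lay between 1228 and 2097, *Eif4e2* between 315 and 681 and *Eif4e3* between 17.8 and 35.4 per kb. The Y-linked γ subunit of eIF2, *Eif2s3y*, exceeded its X-linked partner *Eif2s3x* in every group, at 1170.2 against 321 per kb in WT SPG. The pair is similar in sequence and only unique reads were counted, so levels within it are uncertain. The same holds for *Eef1a1*, which has many processed pseudogenes, and 26 of the 66 members share exonic bases with another annotated gene, among them *Eef2k*, *Eif2ak3*, *Eif2d*, *Eif4g1* and *Eif4g2*, where reads of overlapping genes cannot be told apart without strand.

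Several elongation factor and eIF3 mRNAs are known as TOP mRNAs, which start with a C followed by a run of pyrimidines and whose translation follows growth signals. A C within 3 bases of an annotated start, followed by at least 5 further pyrimidines on the gene's own strand, was searched for in the RefSeq promoter table of GRCm38.p6. It was present for 7 of the 52 members matched to that table (13.5%) and for 2304 of all its 27025 genes (8.53%), and for 2 of the 5 matched members of a list of 9 TOP mRNAs drawn from general knowledge. The windows below run from 10 bases before the annotated start to 20 bases from it, with the run in capitals. They show the most expressed member, the TOP member with the longest run, and the eIF2γ pair, in which both copies carry a run of 12 bases although they lie on the X and Y chromosomes.
Eef1a1, chr9:78481705-78481734 (- strand): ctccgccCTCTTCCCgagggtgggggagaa
Eif3f, chr7:108934405-108934434 (+ strand): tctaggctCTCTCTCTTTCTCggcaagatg
Eif2s3x, chrX:94212632-94212661 (- strand): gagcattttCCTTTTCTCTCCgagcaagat
Eif2s3y, chrY:1010585-1010614 (+ strand): ggccacagccaCTTCCTTCTTTCgtgagca
A match describes the annotated start alone, since starts were not measured here. Between the genotypes in LZ the 9 listed TOP members had log2 fold changes from -0.50 to 0.84 with a median of -0.03, and 0 of 9 were called by limma, edgeR or DESeq2, where 25.8% of all genes were called lower and 13.4% higher in SKO; 3 had an unadjusted p below 0.05.

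Before the LZ stage, few translation factors were called between *Nat10*-SKO and WT cells on the rescaled values. In SPG 0 of the 63 tested members were called at an adjusted p below 0.05 and an absolute log2 fold change above 1, in limma, edgeR or DESeq2, where 2.06% of all 12846 genes tested were called lower and 3.95% higher in SKO; 14 members had an unadjusted p below 0.05. In PreL 0 members were called lower, by any of these tools, and 1 higher, where 5.83% and 5.32% of 13132 genes were called and 17 members had an unadjusted p below 0.05. On the calibrated values without rescaling, 11 members were called higher in SKO PreL and 0 lower, and the median of all genes moved to 0.73. The median log2 fold change of the members was -0.01 in SPG and 0.01 in PreL, against 0.00 and 0.04 over all genes tested, on the rescaled values. Here and below, log2 fold changes are given ± their standard error. In bulk libraries, fewer cells of a type and less RNA per cell cannot be told apart.

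The member called in PreL was *Eif2ak4* (chromosome 2, 118388618 to 118475234 of GRCm38), which encodes GCN2, the eIF2α kinase that responds to uncharged tRNA. Its normalised values were 153, 87.6 and 98.4 in WT PreL and 359.8, 295 and 272 in SKO PreL. Every SKO library lay above every WT library, as for 17.1% of all genes in PreL, and WT PreL had the lowest mean of the 6 groups. In SPG the values were 319, 159 and 335 in WT and 200.3, 225 and 358 in SKO, and the groups overlapped. Between the genotypes in PreL it differed by 1.40 ± 0.30 (adjusted p = 0.0131, limma) on the log2 scale; without SKO PreL replicate 1 it was 1.29 (adjusted p = 0.0769, limma). The helicase gene *Eif4a1* was higher in SKO PreL below the fold threshold, at 4489.5, 4158 and 2959 in WT and 7160.4, 6509.9 and 6099.7 in SKO (log2 fold change 0.79 ± 0.16, adjusted p = 0.0118, limma). Its groups did not overlap in PreL, and with the ERCC-calibrated values not rescaled its value was 1.52. With an adjusted p below 0.05 and no fold threshold, 1 member was lower and 3 were higher in SKO SPG (*Eif3i* against *Eif2b3*, *Eif4a2* and *Eif5*), and 2 were lower and 3 higher in SKO PreL (*Eif3c* and *Eif4g3* against *Eif2ak4*, *Eif4a1* and *Eif4ebp3*), with limma. *Eif4ebp2*, an eIF4E-binding repressor, had 54, 39 and 20 reads in WT SPG and 9, 2 and 2 in SKO SPG; its log2 fold change of -1.69 ± 0.55 (adjusted p = 0.0663, limma) did not pass the test. It was called lower without rescaling (-1.85, adjusted p = 0.0422, limma) and in 1 fit of all 17 libraries (-2.03, adjusted p = 0.0104, limma).

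In LZ, *Nat10*-SKO cells had less RNA of *Eif2s1*, *Eif2b1* and *Eif2d*, of the eIF2 and eIF2B group, of the eIF3 subunit gene *Eif3g*, of the cap-binding and scaffold genes *Eif4e2* and *Eif4g3*, and of *Eif5a*, and more of *Eif4g2*, *Eef2k* and *Eif2ak3*. These 7 lower and 3 higher members were those called of 63 by limma, and they were also those called by edgeR and by DESeq2. They made 11.1% and 4.76% of the members tested, where 25.8% of all 13724 genes tested were called lower and 13.4% higher. At an adjusted p below 0.05 alone, 18 members (28.6%) were lower and 11 (17.5%) higher, against 31.1% and 19.8% of all genes. The share past the p threshold lay near that of all genes, and the share past both thresholds lay below it. Their median log2 fold change was -0.15, against -0.13 over all genes tested. Every SKO LZ library lay below both WT LZ libraries for 29 members and above both for 16. Of all genes, 39.6% and 30.7% did so, so that non-overlap of single genes in LZ, given below, is common.

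The LZ counts depended on single libraries. Where a WT LZ library is left out here and below, the WT arm holds 1 sample, the spread comes from the other libraries of the fit, and the lone sample is assumed to vary like them. Without WT LZ replicate 3, 2 members were called lower, of which 1 (*Eif5a*) was among the 7, and 4 higher. Without WT LZ replicate 2, 10 were lower and 2 higher. Without SKO LZ replicate 1, 4 were lower, all among the 7, and 5 higher. The WT LZ libraries also differed in the markers of later cells, with the late spermatocyte sum of 64381 in replicate 2 and 145833 in replicate 3. All 66 members together took 1.62% and 1.75% of the reads of the WT LZ libraries and 1.23% to 1.39% in SKO LZ, where the groups did not overlap; in the other 4 groups the share lay between 1.62% and 1.77%. What all other genes take also moves such a share, so this drop is not shown to be particular to the members. On the rescaled values the medians of members and of all genes lay close, at -0.15 and -0.13.

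**Figure D2:**
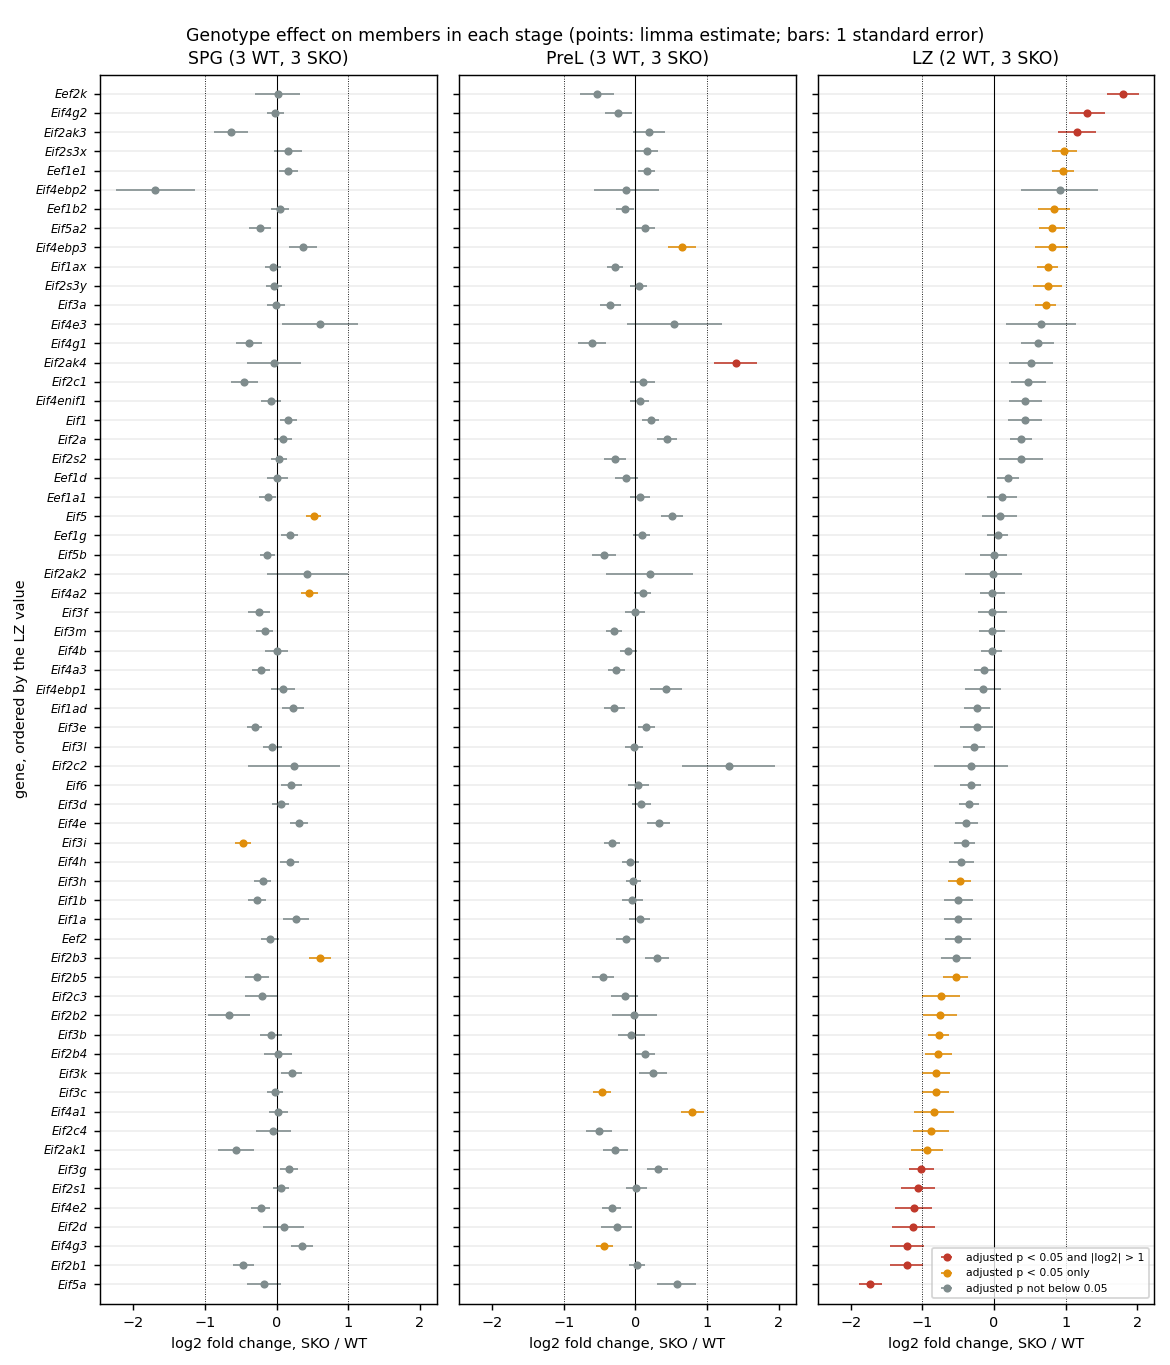
Log2 fold change of SKO against WT (limma, bars of 1 standard error) of the 63 tested members in SPG, PreL and LZ, ordered by the LZ value, with dotted lines at an absolute value of 1. In LZ the members spread from -1.73 (*Eif5a*) to 1.80 (*Eef2k*), and 10 pass both thresholds, against 0 in SPG and 1 in PreL.

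Among the elongation factors, *Eif5a* changed most. *Eif5a* (chromosome 11, 69916714 to 69921958) had normalised values of 21186 and 19392 in WT LZ and 6911, 5994 and 5726 in SKO LZ. Both WT libraries lay above all SKO libraries, and above all SPG and PreL libraries as well. In SKO it was lower by a log2 fold change of -1.73 ± 0.17 (adjusted p = 0.000149, limma), and it remained past both thresholds under every alternative run, with values from -1.85 to -1.66. In SPG and PreL the genotypes overlapped, with 10622, 7338 and 4188 in WT PreL and 9643, 10233 and 10765 in SKO PreL (log2 fold change 0.57 ± 0.27, adjusted p = 0.175, limma), although with values not rescaled SKO was higher in PreL (1.30, adjusted p = 0.00221, limma). Its paralog *Eif5a2*, which can carry the same hypusine modification, went the other way below the fold threshold: values were 2501 and 1867 in WT LZ and 4172, 3940.4 and 3398 in SKO LZ, which did not overlap (log2 fold change 0.81 ± 0.18, adjusted p = 0.00788, limma).

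The kinase gene *Eef2k* (chromosome 7, 120842831 to 120907450), whose product phosphorylates and inhibits eEF2, was the member with the largest increase. Its values were 322 and 274 in WT LZ and 1247, 974 and 974 in SKO LZ, and in SPG 425, 373 and 317 in WT and 280.4, 594 and 319.5 in SKO. The SKO LZ libraries lay above every other library of the series, while the genotypes overlapped in SPG. In LZ the difference was 1.80 ± 0.22 (adjusted p = 0.000487, limma) on the log2 scale, and no alternative ended the call. Its substrate *Eef2*, the translocase, had 8794 and 9989 in WT LZ and 7842, 6500.1 and 5868 in SKO LZ, without overlap and with a log2 fold change of -0.50 ± 0.18 (adjusted p = 0.0536, limma) that did not pass the test. *Eef1a1* had 51726 and 49462 in WT LZ and 55659, 56519 and 53277 in SKO LZ, a log2 fold change of 0.11 ± 0.21 (adjusted p = 0.696, limma). Its libraries did not overlap, and their gap was small beside the levels. Of the other elongation genes, *Eef1b2* and *Eef1e1*, named here after their values were seen, were higher in SKO LZ without reaching the fold threshold, at 0.84 ± 0.23 (adjusted p = 0.0169, limma) and 0.96 ± 0.15 (adjusted p = 0.00158, limma). *Eef1b2* encodes the nucleotide exchange subunit of eEF1, and *Eef1e1* a member of the multi-tRNA synthetase complex.

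**Figure D3:**
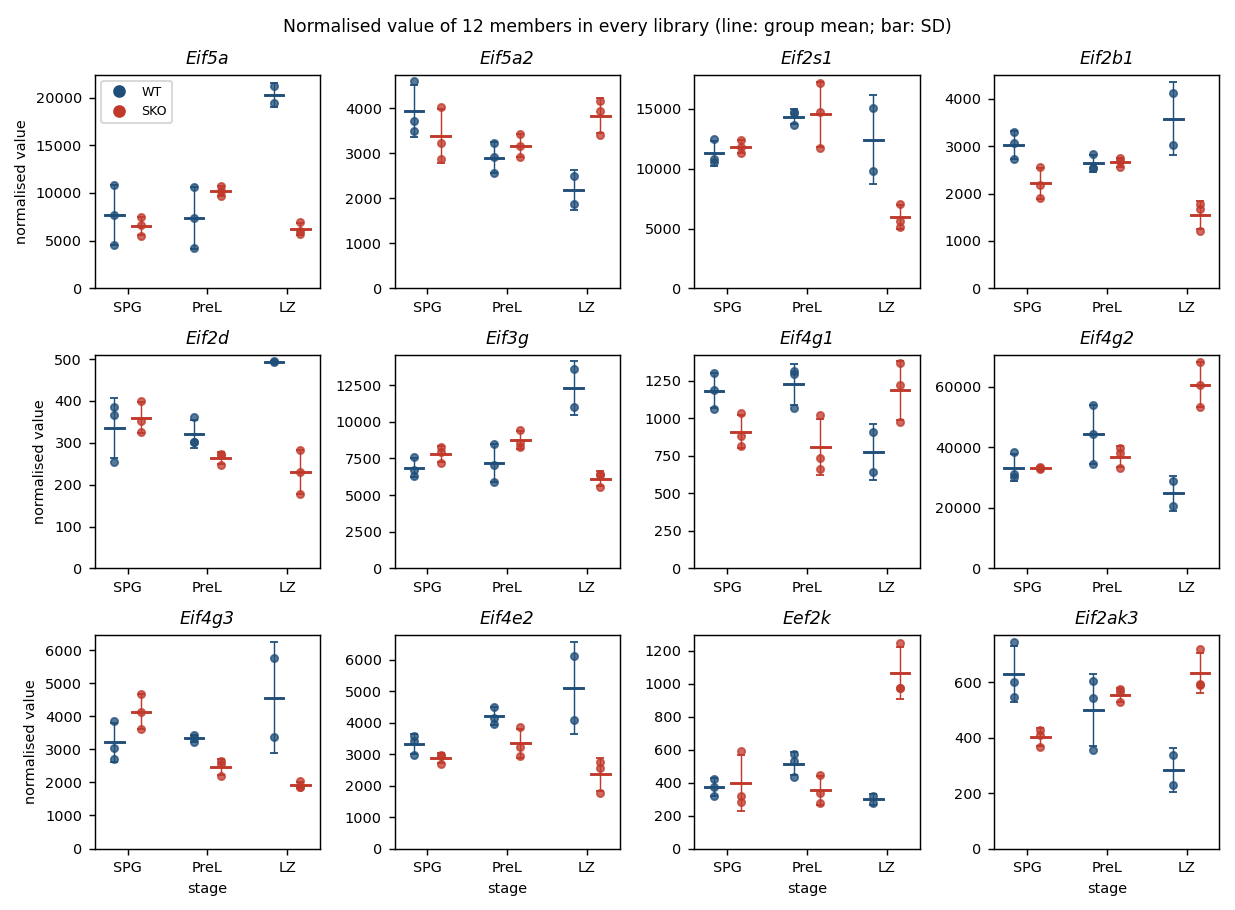
Normalised value of 12 members in every library (points), with the group mean (line) and SD (bar), for WT and SKO in SPG, PreL and LZ; each axis starts at 0. The SKO LZ libraries lie below both WT LZ libraries for *Eif5a*, *Eif2s1*, *Eif2b1*, *Eif2d*, *Eif3g*, *Eif4g3* and *Eif4e2* and above both for *Eif5a2*, *Eif4g1*, *Eif4g2*, *Eef2k* and *Eif2ak3*. Among all genes tested, 39.6% lay below and 30.7% above in this way.

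The eIF4G scaffolds diverged in LZ. *Eif4g2* (chromosome 7, 111067750 to 111083030), whose product lacks the eIF4E-binding site and serves initiation without eIF4E, had 20709 and 28828 in WT LZ and 68120.0, 53336 and 60578 in SKO LZ. All SKO LZ libraries but replicate 2 lay above every other library of the series, and all 3 lay above WT LZ. The log2 fold change was 1.29 ± 0.25 (adjusted p = 0.00414, limma); without WT LZ replicate 2 it was 1.01 (adjusted p = 0.0583, limma). *Eif4g3* (chromosome 4, 137993022 to 138208508), the scaffold paralog known to be needed for mouse spermatocytes to leave meiotic prophase, had 3376 and 5754 in WT LZ and 1873, 2032 and 1851 in SKO LZ. The groups did not overlap, and WT replicate 3 stood well above replicate 2. Its log2 fold change was -1.21 ± 0.24 (adjusted p = 0.00433, limma), and -0.83 without WT LZ replicate 3, below the fold threshold. *Eif4g1*, the general scaffold, had 907 and 642 in WT LZ and 1367, 977 and 1220.3 in SKO LZ, a log2 fold change of 0.61 ± 0.23 (adjusted p = 0.0631, limma) that did not pass the test.

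Of the cap-binding proteins, *Eif4e2* (chromosome 1, 87213914 to 87240488), which encodes 4EHP, a cap-binding repressor that does not bind eIF4G, was lower in SKO LZ. Its values were 4072 and 6132 in WT LZ and 1770.0, 2559.7 and 2758 in SKO LZ, without overlap. In log2 units SKO differed by -1.12 ± 0.26 (adjusted p = 0.00864, limma); it was -0.83 without WT LZ replicate 3 (adjusted p = 0.123, limma) and -0.92 without SKO LZ replicate 1, neither of them called. *Eif4e* itself was at 9554 ± 755 in WT LZ (SD, n = 2) and 7379 ± 289 in SKO LZ (SD, n = 3), a log2 fold change of -0.39 ± 0.16 (adjusted p = 0.0718, limma) that did not pass the test. *Eif4e3* had 55 and 19 reads in WT LZ and 11, 29 and 25 in the shallower SKO LZ libraries, too few to resolve a difference. Its normalised means, which take depth into account, were 22.4 per kb in WT LZ and 35.4 in SKO LZ (log2 fold change 0.66 ± 0.49, adjusted p = 0.295, limma). Of the eIF4A helicase genes, *Eif4a1* was lower below the fold threshold, at 10535 and 5371 in WT LZ and 5043, 3948 and 3878 in SKO LZ, so that WT replicate 3 lay close to the SKO libraries (log2 fold change -0.84 ± 0.28, adjusted p = 0.0399, limma, and -1.32 without WT LZ replicate 3, which passed both thresholds). *Eif4a2* and the exon junction helicase *Eif4a3* did not pass the test, with log2 fold changes of -0.02 ± 0.17 (adjusted p = 0.922, limma) and -0.14 ± 0.14 (adjusted p = 0.439, limma). Of the 4 eIF4E regulators, *Eif4ebp3* was higher in SKO LZ below the fold threshold, at 0.80 ± 0.23 (adjusted p = 0.0218, limma). It passed both thresholds without WT LZ replicate 3 (1.05), and it overlaps an exon of another gene. *Eif4ebp1*, *Eif4ebp2* and *Eif4enif1*, the eIF4E transporter, had log2 fold changes of -0.15, 0.92 and 0.44, with adjusted p from 0.15 to 0.631 (limma), and did not pass the test. *Eif6*, which keeps the large subunit from joining early, had -0.33 (adjusted p = 0.105, limma).

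Of the 11 genes of the eIF2 and eIF2B group, 3 were called lower and 0 higher, where 25.8% and 13.4% of all genes were. The share called lower thus lay near that of all genes. *Eif2s1* (chromosome 12, 78861819 to 78887010) encodes the α subunit of eIF2, the one that stress kinases phosphorylate. Its values were 9812 and 15047 in WT LZ and 5152, 7091 and 5629 in SKO LZ. All SKO LZ libraries lay below every other library of the series, and the WT LZ libraries lay far apart. The log2 fold change was -1.06 ± 0.24 (adjusted p = 0.00761, limma); it was -0.75 without WT LZ replicate 3 (adjusted p = 0.0744, limma) and -0.95 without SKO LZ replicate 1. *Eif2b1* (chromosome 5, 124570213 to 124579131), the α subunit of eIF2B, had 3038 and 4133 in WT LZ and 1214, 1774 and 1672 in SKO LZ, without overlap. Its log2 fold change was -1.22 ± 0.23 (adjusted p = 0.00331, limma), and the call was lost without WT LZ replicate 3 (adjusted p = 0.0641, limma). *Eif2d* (chromosome 1, 131153181 to 131187658), which carries initiator tRNA without eIF2, had 492 and 494 in WT LZ and 283, 177 and 229.9 in SKO LZ. The groups did not overlap and the log2 fold change was -1.12 ± 0.30 (adjusted p = 0.017, limma), but the call was lost when any LZ library other than SKO replicate 1 was left out (adjusted p from 0.0538 to 0.0955, limma). Over all 11 genes of this group, 6 were lower and 2 higher at an adjusted p below 0.05, where 31.1% and 19.8% of all genes were, with a median log2 fold change of -0.54. The higher genes were *Eif2s3x* and *Eif2s3y*, both sex-linked.

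The 3 sex-linked members moved together in LZ. *Eif2s3x* (chromosome X, 94188707 to 94212862) and *Eif2s3y* (chromosome Y, 1010543 to 1028847) encode the γ subunit of eIF2, and *Eif1ax* (chromosome X, 159372178 to 159389928) encodes eIF1A, which promotes scanning. *Eif2s3x* had 684 and 627 in WT LZ and 1209, 1345 and 1383 in SKO LZ, a log2 fold change of 0.98 ± 0.17 (adjusted p = 0.00272, limma). *Eif2s3y* had 2366 and 3572 in WT LZ and 4809, 5084 and 4898 in SKO LZ, a log2 fold change of 0.75 ± 0.20 (adjusted p = 0.0181, limma). *Eif1ax* had 3888 and 3476 in WT LZ and 6187, 6475 and 6043 in SKO LZ, a log2 fold change of 0.75 ± 0.14 (adjusted p = 0.00394, limma). For each of the 3, the WT LZ libraries lay below all SKO LZ libraries and below all SPG and PreL libraries of both genotypes, and none of them reached the fold threshold with all libraries in the fit. *Eif2s3x* reached it without SKO LZ replicate 1 (1.04) and *Eif2s3y* without WT LZ replicate 3 (1.04). The autosomal paralog *Eif1a* had a log2 fold change of -0.50 ± 0.20 (adjusted p = 0.0655, limma) in the other direction, which did not pass the test, with 3220.4 ± 701 in WT LZ (SD, n = 2) and 2281 ± 269.6 in SKO LZ (SD, n = 3).

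Of the 4 eIF2α kinases, *Eif2ak3* (chromosome 6, 70844515 to 70905245), which encodes PERK, the kinase of endoplasmic reticulum stress, had 339 and 228 in WT LZ and 719, 595 and 589 in SKO LZ. The groups did not overlap, and in SPG the WT libraries lay above the SKO libraries, at 600.3, 548 and 745 in WT and 366, 411 and 429.5 in SKO, a difference that did not pass the test (-0.63 ± 0.24, adjusted p = 0.109, limma). For LZ the log2 fold change was 1.16 ± 0.26 (adjusted p = 0.00845, limma), and 0.87 without WT LZ replicate 3, below the fold threshold. *Eif2ak1*, the heme-regulated kinase, was lower in SKO LZ (its exons overlap those of another gene), at 923 and 1135 in WT and 501, 637 and 493 in SKO, below the fold threshold (-0.93 ± 0.22, adjusted p = 0.0101, limma); it passed without WT LZ replicate 2 (-1.12) or SKO LZ replicate 2 (-1.03). *Eif2ak4* and the double-stranded RNA kinase *Eif2ak2* did not pass the test, at 0.52 ± 0.31 (adjusted p = 0.196, limma) and -0.01 ± 0.40 (adjusted p = 0.98, limma).

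Of the 12 eIF3 subunits with reads, 5 were lower and 1 higher in SKO LZ at an adjusted p below 0.05, against 31.1% and 19.8% of all genes, with a median log2 fold change of -0.38. *Eif3g* (chromosome 9, 20894349 to 20898623), an RNA-binding subunit that acts in scanning, was the 1 called, with 10985 and 13599 in WT LZ and 5539, 6454 and 6382 in SKO LZ. Both WT LZ libraries lay above every other library of the series. Its log2 fold change was -1.01 ± 0.17 (adjusted p = 0.00232, limma), at the edge of the fold threshold, and it was -0.86 without WT LZ replicate 3 and -0.94 without SKO LZ replicate 1, and just short of the threshold in 1 fit of all libraries, so that none of these called it. The subunit that was higher, *Eif3a*, is the scaffold of the complex and is named here after its values were seen. It had 5408 and 5593 in WT LZ and 9220.3, 9569.6 and 8735 in SKO LZ, a log2 fold change of 0.72 ± 0.15 (adjusted p = 0.00508, limma) below the fold threshold. Subunits of the complex thus differed in direction. Of the 7 scanning factors 1, *Eif1ax*, passed the p threshold, and 2 of the 4 Argonaute genes were lower at that threshold, against the same shares of all genes.

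From SPG to PreL few members were called in either genotype, and few of all genes were. In WT 1 of 63 was called lower in PreL and 0 higher by limma, where 1.21% and 2.54% of 12657 genes were called and 23 members had an unadjusted p below 0.05; edgeR and DESeq2 also called 0 higher. The member was the Argonaute gene *Eif2c1*, at 1387, 1581 and 1332 in WT SPG and 749, 579 and 656 in WT PreL, without overlap (log2 fold change -1.14 ± 0.18, adjusted p = 0.00717, limma). Of all genes, 13.4% lay wholly lower in WT PreL. DESeq2 called *Eif2ak4* lower as well. With no fold threshold *Eef1a1* and *Eif3h* were also lower, and *Eif1ad*, *Eif2s2* and *Eif4a2* higher, named here because they were few and after their values were seen. In SKO 0 members were called in either direction by limma, edgeR or DESeq2, where 0.955% and 1.63% of 12882 genes were called, and 17 had an unadjusted p below 0.05; with the values not rescaled 29 were higher and 0 lower, and the median of all genes was 1.01 in place of 0.03. The genotype effects of SPG and PreL differed for 0 members (limma interaction over all libraries, edgeR and DESeq2 also 0), where 0.111% of 13530 genes had a lower and 0.251% a higher effect in PreL, and 9 members had an unadjusted p below 0.05; with the values not rescaled 53 members had a higher effect in PreL, and the median of all genes was 0.94.

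From PreL to LZ, WT cells gained *Eif5a* RNA and lost RNA of the sex-linked factors, on values rescaled to the typical gene; without rescaling the sex-linked factors rose, by less than the median gene. In WT 1 member was called lower in LZ and 2 higher, where 7.8% and 18.8% of 13759 genes were called, and with no fold threshold 12 were lower and 5 higher, against 14.2% and 20.5%. With the values not rescaled, 0 members were lower and 52 higher. *Eif5a* rose from 10622, 7338 and 4188 in WT PreL to 21186 and 19392 in WT LZ, without overlap, where 38.4% of all genes lay wholly higher in WT LZ. Its log2 fold change was 1.41 ± 0.33 (adjusted p = 0.0114, limma), and it did not pass the p threshold without WT LZ replicate 2 (1.33, adjusted p = 0.103, limma) or replicate 3 (1.49, adjusted p = 0.0808, limma). *Eif1ax* fell from 6399, 6793 and 7009.6 to 3888 and 3476, a log2 fold change of -1.01 ± 0.18 (adjusted p = 0.0042, limma), and -0.92 without WT LZ replicate 3. *Eif2s3x* and *Eif2s3y* fell by less than the fold threshold, at -0.84 ± 0.24 (adjusted p = 0.0245, limma) and -0.97 ± 0.21 (adjusted p = 0.00939, limma). Without rescaling, the median of all genes was 1.86 in place of 0.13, and these 3 genes stood at 0.82, 0.97 and 0.86, above 0 but below the median of all genes. The other gene called higher was the Argonaute gene *Eif2c2*, with 29, 5 and 0 reads in WT PreL and 124 and 70 in WT LZ, and its call was lost in edgeR, DESeq2, with a pseudocount of 1, with no filter on low values, and without WT PreL replicate 2 or 4 or either WT LZ library (adjusted p up to 0.178, limma). The count of members lower was 5 without WT PreL replicate 1 and 4 without WT LZ replicate 3. This step and the LZ genotype effect share the 2 WT LZ libraries, so a member high or low in them moves in both.

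In SKO cells, the step from PreL to LZ brought less RNA of *Eif2b3* and *Eif2s1* and more of *Eef2k* and *Eif1*. By limma, 2 members were called lower and 2 higher, where 6.93% and 10.6% of 12477 genes were called, and with no fold threshold 15 were lower and 6 higher, against 19.1% and 17.8%. With the values not rescaled 0 were lower and 17 higher. *Eif2b3* (chromosome 4, 117019402 to 117087306), the γ subunit of eIF2B, fell from 5314, 4464 and 6532 in SKO PreL to 1585, 2269 and 2228 in SKO LZ, a log2 fold change of -1.46 ± 0.20 (adjusted p = 0.000642, limma). *Eif2s1* fell from 14754, 11753 and 17158 to 5152, 7091 and 5629, at -1.32 ± 0.19 (adjusted p = 0.000847, limma). For both genes the stages did not overlap, where 26.9% of all genes lay wholly lower in SKO LZ. *Eif2b3* fell in WT as well on the rescaled values, below the fold threshold (-0.75 ± 0.20, adjusted p = 0.0208, limma). *Eef2k* rose from 275, 448 and 339 to 1247, 974 and 974, at 1.56 ± 0.20 (adjusted p = 0.00056, limma). *Eif1* (chromosome 11, 100319885 to 100322096), the gatekeeper of start codon choice, rose from 6985, 7176 and 7723 to 17999, 13422 and 15752, at 1.06 ± 0.14 (adjusted p = 0.000661, limma), and stayed below the fold threshold without SKO LZ replicate 1 (0.96); it rose in WT as well, below that threshold (0.72 ± 0.22, adjusted p = 0.0315, limma). *Eif5a*, which rose in WT, fell in SKO, from 9643, 10233 and 10765 to 6911, 5994 and 5726, below the fold threshold (-0.75 ± 0.13, adjusted p = 0.00202, limma), and with values not rescaled it stood at 0.10. With values not rescaled the median of all genes in this step was 0.81 in place of -0.01, and *Eif2b3* and *Eif2s1* were at -0.60 and -0.47.

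The steps of the 2 genotypes were compared by the interaction term of limma over all 17 libraries. The genotype effect in LZ differed from that in PreL for 24 of 63 members, 13 with a lower and 11 with a higher effect in LZ, where 23.1% and 15.1% of 13530 genes did so, and the medians were -0.19 for the members and -0.31 for all genes. The largest differences were those of *Eef2k* (2.34 ± 0.40, adjusted p = 0.000158, limma), *Eif5a* (-2.28 ± 0.41, adjusted p = 0.000275, limma), *Eif4a1* (-1.61 ± 0.30, adjusted p = 0.000374, limma), *Eif4g2* (1.55 ± 0.25, adjusted p = 0.00011, limma) and *Eif3g* (-1.30 ± 0.21, adjusted p = 7.59e-05, limma). *Eif4a1* was the 1 member that passed the p threshold in both stages in opposite directions, higher in SKO PreL and lower in SKO LZ. Of *Eif1ax*, *Eif2s3x* and *Eif2s3y* all 3 had a higher effect in LZ on the rescaled values, but with the values not rescaled their interactions were 0.18, -0.024 and -0.15. Without WT LZ replicate 3 the count was 6 lower, all among the 13, and 11 higher, 8 of them among the 11, and with the values not rescaled it was 41 lower and 1 higher, where the median of all genes was -1.12.

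**Figure D4:**
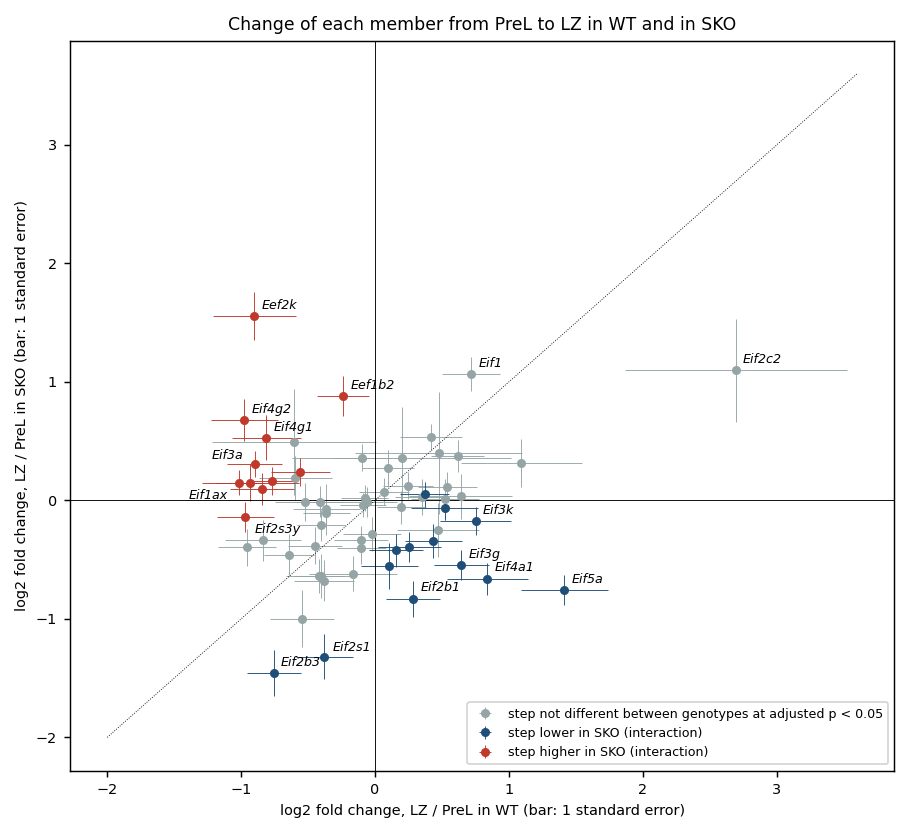
Log2 fold change from PreL to LZ in WT (horizontal) and in SKO (vertical) of the 63 tested members (limma, bars of 1 standard error); the dotted line marks equal steps, and colours give the sign of the 24 interactions with an adjusted p below 0.05. *Eif5a* lies at 1.41 in WT and -0.75 in SKO, and *Eef2k* at -0.90 and 1.56. The sex-linked genes *Eif1ax* and *Eif2s3y* lie at -1.01 and -0.97 in WT and at 0.15 and -0.14 in SKO; with the values not rescaled all of these steps lie above 0.

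Genes that work beside the initiation and elongation factors, in lists drawn up from general knowledge, were tested in the same fit. In LZ, 4 lower and 1 higher of 7 tested were called among poly(A)-binding proteins and their partners, 3 lower and 2 higher of 10 tested among helicases and cap partners, 0 lower and 1 higher of 9 tested among termination and recycling factors, 3 lower and 1 higher of 9 tested among mitochondrial translation factors, 1 lower and 0 higher of 4 tested among eIF2 phosphatase subunits and GCN2 partners, and 0 lower and 0 higher of 6 tested among the enzymes that modify eIF5A and eEF2, where 25.8% of all genes were called lower and 13.4% higher. Their median log2 fold changes in LZ were -1.11, -0.33, 0.33, -0.49, 0.24 and -0.42, against -0.13 over all genes. In the last of these lists edgeR and DESeq2 also called 0, with 4 at an unadjusted p below 0.05; *Dhps* and *Dohh*, which make hypusine on eIF5A and are named here after their values were seen, were lower below the fold threshold (-0.85, adjusted p = 0.00837, and -0.76, adjusted p = 0.0271, limma). The largest decreases over all the lists were those of *Pabpc2* and *Pabpc6*, testis-enriched poly(A)-binding protein genes of meiotic and later cells. *Pabpc2* had 2782 and 6433 reads in WT LZ and 0 in every SKO LZ and SKO PreL library, and *Pabpc6* had 2610 and 6645 in WT LZ and 15, 17 and 16 in SKO LZ. *Mtif3*, a mitochondrial initiation factor, followed, at normalised values of 430.4 and 825 in WT LZ and 119.8, 145 and 163 in SKO LZ. The largest increases were those of *Ddx3x* and *Ddx3y*, sex-linked helicases of initiation, and *Pabpc4*. *Ddx3x* had 1276 and 707 in WT LZ and 2549, 3247 and 2788 in SKO LZ, and *Ddx3y* had 792 and 1135 and 2320.0, 2418 and 2821. *Ddx3x* was called higher in SKO in SPG as well, at 435, 289 and 238 in WT and 2187, 1579 and 1400.3 in SKO (log2 fold change 2.37 ± 0.26, adjusted p = 0.00016, limma). It was also called higher in SKO PreL (1.63 ± 0.32, adjusted p = 0.00954, limma). The sex-linked members were called between the genotypes at no stage with all libraries in the fit.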

How the data were processed

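The table holds spermatogenic cells of WT and *Nat10*-SKO mice in 17 Smart-seq2 libraries with ERCC spike-in. The deposited values are a signal: the authors counted uniquely mapped reads (mm10, HTSeq 0.11.2; the labels also list mm9, TopHat2 2.1.1, Cufflinks 2.2.1 and DESeq2) and multiplied each library by 1 factor from the spike-in and cell input. Whole reads were recovered by dividing by that factor. The kit does not keep strand.

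Values were divided by median-of-ratios factors over the libraries compared, since the calibration moves all genes of a library together, and log2(value + 10) was tested with limma 3.58.1 (trend, R 4.3.3) where the mean over the libraries reached 10 recovered reads, with Benjamini-Hochberg adjustment over all of them. Called means an adjusted p below 0.05 with a log2 fold change beyond 1 in size, the study's thresholds; interactions need the p alone. Fold changes on this scale understate those of low genes. Alternatives were no rescaling, TMM, other pseudocounts and filters, edgeR 4.0.16 and DESeq2 1.42.0 on the recovered reads, 1 fit of all libraries, a replicate block and leaving out each library. The fits were tested on simulated data. Replicate libraries differed by more than sampling noise.

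Members and lists were chosen with earlier results of these data known. Named members are those called between genotypes or stages and a list of core factors, paralogs and kinases; others are said to be named after their values were seen. Outside the members, at most 3 genes called in LZ per direction are named by rule. Positions are from GENCODE M21 (GRCm38) and start windows from RefSeq (GRCm38.p6).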

Additional observations from a re-analysis of the deposited data

Results flagged for a closer look

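For 24 members the genotype effect (SKO against WT, log2) in LZ differed from that in PreL by the interaction term of limma over all 17 libraries, with adjusted p values over all genes from 3.5e-05 to 0.0405. These were 13 lower and 11 higher (20.6% and 17.5% of the 63 tested), near the 23.1% and 15.1% of all 13530 genes. Values below are the difference of the log2 fold changes, LZ minus PreL, with its standard error.

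Lower in LZ than in PreL were the elongation factor *Eif5a* -2.28 ± 0.41, the helicase *Eif4a1* -1.61 ± 0.30 and the cap-binding and scaffold genes *Eif4e* -0.69 ± 0.21, *Eif4e2* -0.77 ± 0.25 and *Eif4g3* -0.76 ± 0.25. Of eIF2 and eIF2B the lower genes were *Eif2s1* -1.05 ± 0.24, *Eif2b1* -1.22 ± 0.24, *Eif2b3* -0.81 ± 0.26 and *Eif2b4* -0.89 ± 0.26, and of eIF3 *Eif3b* -0.70 ± 0.26, *Eif3g* -1.30 ± 0.21, *Eif3h* -0.43 ± 0.16 and *Eif3k* -1.03 ± 0.27.

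Higher in LZ were *Eef2k* 2.34 ± 0.40, the elongation genes *Eef1b2* 1.01 ± 0.23, *Eef1e1* 0.82 ± 0.19 and *Eif5a2* 0.69 ± 0.23, the scaffolds *Eif4g1* 1.23 ± 0.29 and *Eif4g2* 1.55 ± 0.25, the sex-linked *Eif1ax* 1.05 ± 0.15, *Eif2s3x* 0.84 ± 0.25 and *Eif2s3y* 0.72 ± 0.20, the kinase gene *Eif2ak3* 0.97 ± 0.34 and the eIF3 scaffold *Eif3a* 1.10 ± 0.20. With the ERCC-calibrated values not rescaled, *Eef1e1* (-0.045), *Eif2s3x* (-0.024), *Eif2s3y* (-0.15) and *Eif5a2* (-0.18) were below 0, where the median of all genes was -1.12. In that fit *Eef2k* was the 1 of the 11 higher genes that still passed the p threshold, while all 13 lower genes still passed it. Less firm were *Eif3b*, *Eif3h*, *Eif2b3*, *Eif2ak3* and *Eif5a2*. These did not pass with the replicate number as a block, or without some single PreL or SKO LZ libraries. *Eif3b* also did not pass in edgeR, *Eif4g3* with that block, and *Eif4e2* without SKO PreL replicate 3 or SKO LZ replicate 1. The interactions of all of these genes, and those of *Eif4e*, *Eif2b4* and *Eif2s3x*, also depended on WT LZ replicate 3. That of *Eif2s3y* depended on WT LZ replicate 2. Leaving out either library leaves 1 WT LZ library in the fit. The late spermatocyte and spermatid marker sums were lower in every SKO LZ and SKO PreL library than in the WT libraries of the same stage, and their part in these differences was not tested.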

How the results depend on the processing

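The limits are the 2 WT LZ libraries, the depth of SKO LZ (fewer reads than every other group) and the scaling. Of the values of single genes recomputed under the alternatives, 2649 kept their direction and side of the threshold, 106 changed sign without a call, 68 newly passed, 88 no longer passed and 13 reversed with a call. TMM scaling called 1 member higher in the SKO step from PreL to LZ.

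Without rescaling, members called lower and higher were 1 and 0 in SPG and 0 and 11 in PreL. They were 0 and 52 in the WT step to LZ, 0 and 17 in the SKO step to LZ, and 0 and 29 in the SKO step to PreL. The interactions numbered 42 (LZ against PreL) and 53 (PreL against SPG). All genes moved as well, with medians of -0.25, 0.73, 1.86, 0.81, 1.01, -1.12 and 0.94 in the same order. The share of all genes called was not counted here or with libraries left out. Such counts are therefore not a result particular to the members. Reversed without rescaling were the interactions of *Eef1e1* (-0.045), *Eif2s3x* (-0.024), *Eif2s3y* (-0.15) and *Eif5a2* (-0.18), and in the WT step to LZ *Eif1ax* (0.82), *Eif2s1* (1.45), *Eif4a3* (1.47), *Eif4ebp1* (1.66), *Eif4ebp3* (1.46), *Eif4enif1* (1.31), *Eif4g1* (1.004), *Eif5a2* (1.27) and *Eif6* (1.73), where the median of all genes was 1.86.

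With no fold threshold the counts lower and higher were 1 and 3 in SPG, 2 and 3 in PreL, 18 and 11 in LZ, 3 and 3 (WT) and 1 and 1 (SKO) from SPG to PreL, and 12 and 5 (WT) and 15 and 6 (SKO) from PreL to LZ. One fit of all libraries gave 1 lower in SPG (*Eif4ebp2*), 6 lower in LZ (without *Eif3g*), 2 lower in the WT step to PreL, 0 lower in the WT step to LZ and 1 higher in the SKO step to PreL. In the WT step to LZ 1 was higher with a pseudocount of 1, no filter, a minimum of 50 reads, edgeR or DESeq2, and DESeq2 gave 2 lower in the WT step to PreL. Without the 4 Argonaute genes, an alternative chosen after seeing the data, these WT steps had 0 lower (PreL) and 1 higher (LZ).

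Leaving out 1 library at a time gave 0 to 2 higher in PreL, 2 to 10 lower and 2 to 5 higher in LZ, 1 to 5 lower and 1 to 2 higher in the WT step to LZ, 2 to 3 lower and 1 to 3 higher in the SKO step to LZ, and 17 to 28 interactions. For the other changes the cause was not tested.

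Deviations of same-numbered libraries were at most weakly correlated (14 pairs, r from -0.188 to 0.131, 3 above 0.1). Deviations within groups of so few libraries depend on each other, so these values cannot decide whether the numbers mark pairs. With the replicate number as a block LZ had 4 members lower and 5 higher; SKO LZ replicate 1 has no WT partner and drops out. A block could not be fitted for the WT step to LZ, which shares 1 number.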
